A study of Mus musculus with 6 samples.

Results

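Growth hormone from the pituitary binds its receptor on hepatocytes, the kinase JAK2 then phosphorylates the transcription factors STAT5A and STAT5B, and these switch on Igf1, Igfals and the genes of their own brakes. The liver is the main source of circulating IGF1, which travels bound to IGF binding proteins and, in its longest-lived form, to the acid-labile subunit. In mice the timing of growth hormone pulses differs between males and females and sets the sex-biased expression of many liver genes. Here 9 genes of this axis, chosen by symbol, were followed among the 24346 rows of a liver expression table: the receptors Ghr and Prlr, the transcription factors Stat5a and Stat5b, the hormone gene Igf1, and Igfals, Igfbp2, Igfbp3 and Igfbp4, whose products carry IGF1. All 9 were present in the table and all 9 passed the filter for testing.

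The livers came from male C57BL/6 mice (C57BL/6J in the study's methods) fed a choline-deficient, amino acid-defined, high-fat diet (CDAHFD) from 8 weeks of age for 6 weeks, a model of steatohepatitis, then returned to normal chow and analysed 2 weeks later. Every mouse carried an adeno-associated virus of serotype 8, whose thyroxine-binding globulin promoter drives expression in hepatocytes. In 3 control livers the virus encoded LDTS-LIR mut, the droplet-targeting sequence of perilipin 1 joined to a LC3-interacting region that no longer binds LC3. In 3 lipophagy livers it encoded LDTS-eLIR, in which an engineered region recruits autophagosomes to lipid droplets. Both groups therefore carried the droplet-targeting part, which the study describes as mildly lipogenic, and no liver without virus or diet was analysed here. The measurement was RNA sequencing of whole liver, given as FPKM (fragments per kilobase of transcript, scaled to mapped fragments). In such bulk tissue, fewer cells of a type and less RNA per cell cannot be told apart. The labels do not say whether each library is 1 mouse, so p-values measure only the spread between these samples.

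The libraries were estimated to hold 23.5 to 34.8 M fragments. Across the 11493 genes tested the median difference was 0.02 on the log2(FPKM + 1) scale, with 6259 genes higher and 5234 lower in lipophagy livers. Albumin (Alb) and Apoa2, the most abundant of 20 hepatocyte markers tested, averaged 37750 and 13070 FPKM in control livers, so the tissue matched its label. The summed hepatocyte markers were 103000 to 111900 FPKM in control and 120600 to 148000 FPKM in lipophagy livers, with 16 of 20 higher and a median difference of 0.23. The sum of FPKM over all genes was higher in each lipophagy liver (709993 to 782392) than in each control liver (622696 to 681138). The part of these shifts in the differences below was not tested, so each direction that another scaling turned is given with that scaling.

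As a map of the axis, Ghr lies on the minus strand of chr15:3317760-3583492 and Prlr on the plus strand of chr15:10177238-10349180 (mm10, GENCODE M21). Stat5a (chr11:100859351-100885169, plus strand) and Stat5b (chr11:100780731-100850724, minus strand) are neighbours. Igf1 is at chr10:87858265-87937042 (plus strand), Igfals at chr17:24865997-24882010 (plus strand) and Igfbp2 at chr1:72824503-72852474 (plus strand). Igfbp3 (chr11:7206086-7213923, minus strand) and Igfbp4 (chr11:99041244-99054392, plus strand) share chromosome 11 with the STAT5 pair.

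STAT5 binds the palindrome TTCNNNGAA, and the 250 bases before 17 annotated starts of the 9 genes were searched for it on both strands (RefSeq, GRCm38.p6). These did not include every start in GENCODE: the only Igf1 window, chr10:87860861-87861110, lay within the gene span given above. The palindrome reads alike on both strands, so each match counts once. It was present before 3 of 17 starts of the 9 genes, 1 of Prlr and 2 of Igfals, against 2306 of 32851 starts of all genes (7.02%). No window of Ghr, Igf1, Igfbp2, Igfbp3, Igfbp4, Stat5a or Stat5b held these letters. The sites are shown because they are the only matches among the 9 genes, and capitals mark the palindrome.

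Prlr, chr15:10223786-10223814, plus strand, 110 bases before a start: gcaaaatgagTTCTAGGAAtaagggatat

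Igfals, chr17:24877598-24877626, plus strand, 236 bases before a start: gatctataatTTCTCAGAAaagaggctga

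Igfals, chr17:24878163-24878191, plus strand, 58 bases before a start: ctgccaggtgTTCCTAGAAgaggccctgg

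A match is a description of the sequence, not evidence of binding in these livers.

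Ghr encodes the growth hormone receptor and, through an alternative transcript, the circulating binding protein. The table gives 1 value per symbol, so the forms could not be separated. Its level was 162, 153 and 137 FPKM in control livers 1, 2 and 3 and 198, 195 and 215 FPKM in lipophagy livers 1, 2 and 3. All 3 lipophagy livers lay above all 3 control livers, with no overlap. The means were 150.4 ± 12.6 and 203 ± 10.3 FPKM (SD, n = 3 each), 1.35-fold higher in lipophagy livers. The log2 difference was 0.43 (SE 0.0914, 95% interval 0.22 to 0.64, limma unadjusted p = 0.00149), the largest among the 9 genes and reached or exceeded by 2.34% of all tested genes. Over all 11493 genes it did not pass the threshold of 0.05 (Benjamini-Hochberg adjusted p = 0.131). It stood 129th by p-value. Under every scaling tried Ghr was higher, at 0.16 when livers were set to the same mean of hepatocyte markers and at 0.25 both after quantile normalization and with the sum of FPKM made equal. An estimated 14850 to 21530 fragments per liver stood behind these values, so counting error was 0.682% to 0.821%.

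Prlr encodes the prolactin receptor, which in mouse liver is more abundant in females. In control livers its values were 20.3, 10.1 and 11.2 FPKM. The lipophagy livers had 20.2, 10.6 and 14.8 FPKM. Control 1 and lipophagy 1 were each about as high as the other, and the remaining livers were lower in both groups. The difference of 0.14 (SE 0.28, 95% interval -0.51 to 0.79, adjusted p = 0.800, limma) was smaller than the spread between livers. It turned to -0.13 at the same hepatocyte marker mean and -0.03 at the same sum of FPKM. It depended on single livers, at 0.43 without control 1, -0.04 without control 2, 0.03 without control 3 and -0.08 without lipophagy 1. With 2401 to 5404 estimated fragments, counting error was at most 2.04% per liver, far below the gap between livers of 1 group.

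Stat5a and Stat5b carry the signal to the nucleus, and Stat5b is the main form in hepatocytes. Stat5a was at 2.59, 3.43 and 2.71 FPKM in control livers and 2.10, 3.05 and 2.40 FPKM in lipophagy livers. The groups overlapped, and Stat5a was the only one of the 9 genes with a lower mean in lipophagy livers (-0.16, SE 0.13, 95% interval -0.45 to 0.13, adjusted p = 0.501, limma). It was lower under all 16 alternative settings, from -0.43 to -0.06, with no adjusted p below 0.0529, and was -0.06 without control 2, -0.07 without lipophagy 1 and -0.26 without lipophagy 2. Stat5b was at 6.62, 7.31 and 6.95 FPKM in control livers and 7.79, 7.11 and 6.31 FPKM in lipophagy livers, so that lipophagy livers held both the highest and the lowest value. Its difference was 0.02 (SE 0.0916, 95% interval -0.19 to 0.23, adjusted p = 0.937, limma), and turned to -0.25 at the same hepatocyte marker mean, -0.14 at the same sum of FPKM and -0.01 after quantile normalization. It was -0.01 without control 1, -0.05 without lipophagy 1 and 0.09 without lipophagy 3. Since FPKM is per length, the pair can be compared within a liver. Stat5b exceeded Stat5a 2.55-, 2.13- and 2.56-fold in control livers and 3.71-, 2.33- and 2.63-fold in lipophagy livers. The difference of log2(FPKM + 1) between the pair, which is smaller than the log2 of these folds, was 1.03 ± 0.106 in control and 1.20 ± 0.265 in lipophagy livers (SD, n = 3 each), and the 0.17 between groups was not distinguishable from the spread (two-sided exact permutation test, p = 0.4, where the smallest possible p is 0.1). Without lipophagy 1 it was 0.02, without lipophagy 2 0.27 and without control 2 0.11.

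Reads of this pair are partly interchangeable, which limits how well each gene is measured. The coding sequences were identical at 90.71% of 2346 aligned bases, and 265 windows of 100 bases, the read length, were identical in both, 6.99% of such windows in the Stat5a transcript and 5.18% in that of Stat5b. The longest identical run covers bases 571 to 894 of both coding sequences (GENCODE M21, counted from the first base of the start codon). Its first 100 bases are shown because a read within them matches both genes equally, and the final 60 coding bases because there the genes differ.

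Stat5a and Stat5b, coding bases 571 to 670: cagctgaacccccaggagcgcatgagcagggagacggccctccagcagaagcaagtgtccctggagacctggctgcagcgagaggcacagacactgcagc

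Stat5a, coding bases 2323 to 2382: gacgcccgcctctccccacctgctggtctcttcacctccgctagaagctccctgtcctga

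Stat5b, coding bases 2302 to 2361: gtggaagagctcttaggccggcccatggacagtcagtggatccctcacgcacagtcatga

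Stat5a was the least abundant of the 9 genes, with an estimated 188 to 348 fragments per liver and a counting error of 5.36% to 7.30%. Stat5b had 798 to 1210 fragments and an error of 2.88% to 3.54%.

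**Figure D1:**
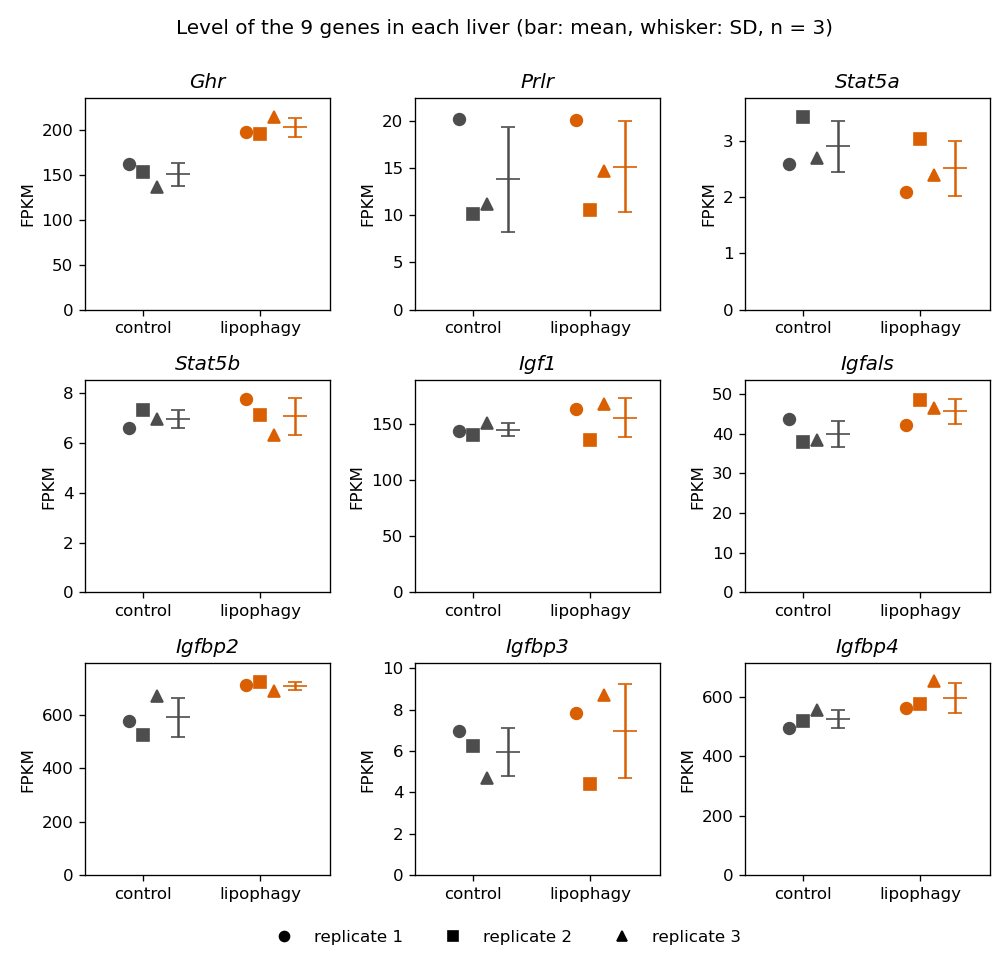
Level of the 9 genes in FPKM (vertical axes, each from 0) in 3 control and 3 lipophagy livers; symbols mark the replicate, the bar is the mean and the whisker the SD. Ghr, Igfbp2 and Igfbp4 have every lipophagy liver above every control liver, while Prlr is near 20 FPKM in replicate 1 of both groups.

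Igf1, the hormone gene, was at 144, 140.1 and 151 FPKM in control livers and 163, 136 and 168 FPKM in lipophagy livers. Lipophagy 2 held the lowest value of all and lipophagy 3 the highest, so the groups overlapped. The means were 145 ± 5.68 and 156 ± 17.3 FPKM (SD, n = 3 each), and the difference of 0.10 (SE 0.0999, 95% interval -0.13 to 0.33, adjusted p = 0.613, limma) was within the spread. It was -0.07 after quantile normalization, -0.09 at the same sum of FPKM and -0.17 at the same hepatocyte marker mean. Without lipophagy 2 it was 0.19, without lipophagy 1 it was 0.06, and without lipophagy 3 it was 0.04. At 140.1 to 151 FPKM in control livers Igf1 could not be separated from Ghr (137 to 162 FPKM), whereas in lipophagy livers every Ghr value (195 to 215) exceeded every Igf1 value (136 to 168).

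Igfals encodes the acid-labile subunit, the partner that holds IGF1 and IGFBP3 or IGFBP5 in a large circulating complex. Its values of 43.8, 37.9 and 38.4 FPKM in control and 42.2, 48.4 and 46.4 FPKM in lipophagy livers overlapped through control 1 alone. The difference was 0.19 (SE 0.0912, 95% interval -0.02 to 0.40, adjusted p = 0.295, limma), and -0.08 at the same hepatocyte marker mean.

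Igfbp3, the binding protein of that complex, comes mainly from non-parenchymal liver cells. It was at 6.95, 6.23 and 4.70 FPKM in control livers and 7.83, 4.39 and 8.68 FPKM in lipophagy livers, with the lowest and the highest value both in lipophagy livers. The difference of 0.16 (SE 0.22, 95% interval -0.35 to 0.68, adjusted p = 0.702, limma) became -0.10 at the same hepatocyte marker mean, 0.42 without lipophagy 2, 0.27 without control 1 and 0.002 without lipophagy 3. Summed markers of sinusoidal endothelial cells were 51 to 63.3 FPKM in control and 56.5 to 83.2 FPKM in lipophagy livers (10 of 14 higher, median 0.09), led by Clec4g and Fcgr2b. Those of macrophages and Kupffer cells were 941 to 1205 and 904 to 1083 FPKM (13 of 17 lower, median -0.21), led by Lyz2 and C1qb. Their part in the Igfbp3 values was not tested.

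Igfbp2, which binds IGF1 in smaller complexes and is known to fall under growth hormone and insulin, was the most abundant of the 9 genes. Control livers had 578, 525 and 672 FPKM and lipophagy livers 712, 724 and 692 FPKM. Lipophagy livers were all higher, the nearest pair being control 3 and lipophagy 3. The means were 592 ± 74.1 and 710 ± 16.0 FPKM (SD, n = 3 each), 1.20-fold higher in lipophagy livers, with a difference of 0.27 (SE 0.107, 95% interval 0.02 to 0.51, limma unadjusted p = 0.0362, adjusted p = 0.235). The difference was 0.05 after quantile normalization (adjusted p = 0.834, limma), 0.09 at the same sum of FPKM and 0.0001 at the same hepatocyte marker mean.

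Igfbp4, a binding protein that mostly restrains IGF1 and is made in large amounts by liver, was at 497, 521 and 557 FPKM in control and 562, 576 and 653 FPKM in lipophagy livers. Here too no values overlapped, though control 3 and lipophagy 1 lay next to each other. The difference was 0.18 (SE 0.0962, 95% interval -0.04 to 0.41, adjusted p = 0.324, limma), 1.14-fold by the means. It was 0.12 without lipophagy 3, -0.05 after quantile normalization and -0.08 at the same hepatocyte marker mean.

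Among the 7 IGF binding protein genes Igfbp1 to Igfbp7, FPKM was dominated by the same pair in each liver. Igfbp2 made up 43.8% to 50.8% and Igfbp4 38.9% to 44.5% of their summed FPKM, while Igfbp3 made up 0.308% to 0.591%. Igfbp7 accounted for 8.86% to 10.2% in control and 6.34% to 7.44% in lipophagy livers. The full order of mean FPKM was Igfbp2, Igfbp4, Ghr, Igf1, Igfals, Prlr, Stat5b, Igfbp3 and Stat5a. In control livers the neighbours Igfbp2 and Igfbp4, Ghr and Igf1, and Stat5b and Igfbp3 had overlapping ranges.

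Of the 9 genes, 8 had a higher and 1 a lower mean in lipophagy livers, with a median difference of 0.16 against 0.02 over all tested genes. No gene of the 9 had an adjusted p below 0.05 (limma), where 3 of all 11493 did (0.0261%). At an unadjusted p below 0.05, Ghr and Igfbp2 were higher and 0 were lower, where 11.5% of all tested genes were higher and 7.97% lower. After quantile normalization 0 of the 9 were below 0.05 in either direction, at the same sum of FPKM only Ghr was (higher), and at the same hepatocyte marker mean Stat5a and Stat5b were (lower). Ghr, Igfbp2 and Igfbp4, 3 of 9, had every lipophagy liver above every control liver, where 15.4% of tested genes did, and 0 of 9 had every lipophagy liver below, where 10.8% did. With so few genes these shares are a description. The sign counts depended on the scale. As deposited 8 of 9 were higher, against 54.5% of all tested genes, and the same 8 of 9 count against 54.8% was found with livers set to the same median. After quantile normalization 5 of 9 were higher (52% of all), at the same sum of FPKM 5 of 9 (22.6%) and at the same hepatocyte marker mean 2 of 9 (8.71%). The median of all genes was 0.007, -0.12 and -0.25 under these 3 settings, and genes higher made up 45.3%, 8.61% and 1.54% of those with p below 0.05 (59.2% as deposited). The hepatocyte setting shifts every gene of a liver alike, so it moves no gene against the others, whereas quantile normalization does. Above the median of all genes lay 7 of the 9 as deposited, at the same hepatocyte marker mean and at the same sum of FPKM, and 5 after quantile normalization. Relative to the median of all genes under the same setting, Ghr was 0.41 higher as deposited, 0.24 after quantile normalization, 0.37 at the same sum of FPKM and 0.41 at the same hepatocyte marker mean. The corresponding values of Igf1 were 0.08, -0.08, 0.03 and 0.08. Those of Stat5a were -0.18, -0.11, -0.17 and -0.18.

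**Figure D2:**
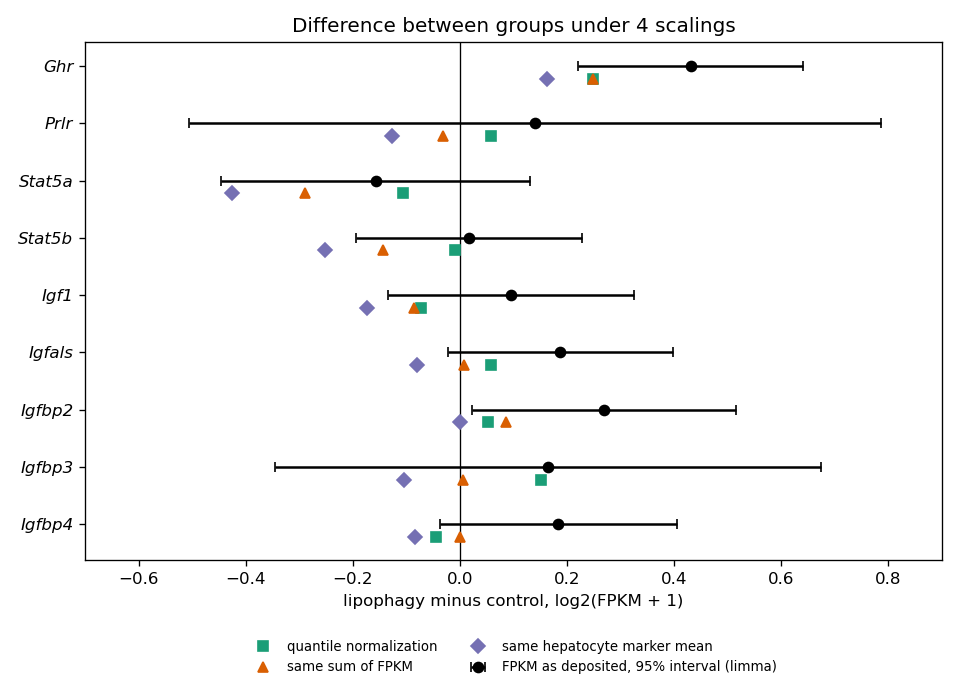
Difference between lipophagy and control livers on the log2(FPKM + 1) scale (horizontal axis) for each of the 9 genes; black points and bars are the values as deposited with 95% intervals, and coloured marks the same difference under 3 other scalings. Ghr stays above 0 and Stat5a below 0 under all 4, while the other 7 genes lie near or across 0 under at least 1.

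Around these 9 genes, lists of the pathway were described by counts. Growth hormone, prolactin, Ghrh, Ghsr and Sst, the hormones and receptors of the pituitary and hypothalamus, were listed at 0 in all 6 livers. Of 9 such genes only Sstr2, a somatostatin receptor, passed the filter (-0.004, adjusted p = 0.988, limma). The receptor for IGF1 itself was scarce, as is usual in hepatocytes: Igf1r, named for its role, was between 0.0561 and 0.109 FPKM in every liver.

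Among 15 genes that act with the receptor (Jak2, adaptors, other STATs and kinases), 2 were higher and 13 lower, with a median of -0.12, and 0 had an adjusted p below 0.05. At unadjusted p below 0.05, 1 was higher and 4 were lower (11.5% and 7.97% of all tested genes), and 4 of 15 had all lipophagy livers below all controls (10.8% of all tested genes). Jak2, the kinase bound to the growth hormone receptor and named for that role, was at 3.18, 2.73 and 2.78 FPKM in control and 2.84, 2.55 and 2.67 FPKM in lipophagy livers (-0.08, adjusted p = 0.615, limma). Its groups overlapped, and the difference was -0.03 without control 1 and -0.35 (adjusted p = 0.0273, limma) at the same hepatocyte marker mean, where the median of all genes was -0.25. The highest difference was that of the adaptor Shc1 (0.24, adjusted p = 0.230), which was 0.15 without lipophagy 1. For Shc1 it was 0.07 at the same sum of FPKM and turned to -0.03 at the same hepatocyte marker mean. The lowest was that of Onecut1, a hepatocyte transcription factor that growth hormone induces, at 4.24, 0.983 and 0.934 FPKM in control and 0.531, 0.341 and 0.653 FPKM in lipophagy livers. All lipophagy values of Onecut1 were below all control values, but control 1 carried much of the difference: -0.86 with it and -0.38 without it (adjusted p = 0.240 and 0.205, limma). With a pseudocount of 0.1 and all livers the difference was -1.51.

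The brakes on JAK-STAT5 signalling held the gene with the strongest difference of the pathway. Cish, whose product binds activated cytokine receptors and whose transcription STAT5 induces, was at 15.8, 10.2 and 13.1 FPKM in control livers and 0.796, 0.934 and 1.40 FPKM in lipophagy livers. It fell by 2.77 on the log2(FPKM + 1) scale (SE 0.165, adjusted p = 0.00172, limma), and its adjusted p was below 0.05 under all 16 alternatives. That scale understates changes at these low values. With a pseudocount of 0.1 the difference was -3.53, and the lipophagy mean was 0.080 of the control mean. Socs2, named with the next genes after their values were seen, is another STAT5-induced brake and was at 9.31, 5.47 and 8.80 FPKM in control and 1.49, 4.02 and 2.35 FPKM in lipophagy livers. Socs3, which STAT3 as well as STAT5 induces, was at 8.78, 13.8 and 28.4 FPKM in control and 2.67, 3.75 and 4.31 FPKM in lipophagy livers. Both had no overlap between groups and did not pass the threshold (-1.32 and -1.84, adjusted p = 0.124 and 0.118, limma). The list of 14 brakes was drawn up with earlier results of these data known. Over all 14, 5 were higher and 9 lower, with a median of -0.12. Of the 14, 1 passed the threshold and 5 had all lipophagy livers lower (10.8% of all tested genes). The highest was Dusp1, a MAP kinase phosphatase, whose 0.41 (adjusted p = 0.670) rested on 29.6 FPKM in lipophagy 3 and was -0.28 without it. The lipophagy livers were thus the 3 lowest for Cish and the 3 highest for Ghr, while Igf1 and Stat5b overlapped between groups.

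Beside these, 5 of 17 further IGF system genes passed the filter, 1 higher and 4 lower, with a median of -0.20 and 0 past the threshold. Igfbp1, a binding protein under insulin control, was higher on average (0.38, adjusted p = 0.501, limma) with 31.1, 24.2 and 19.5 FPKM in control and 53.2, 29.4 and 21.2 FPKM in lipophagy livers. Its difference was 0.03 without lipophagy 1, 0.67 without lipophagy 3 and 0.22 without control 3. The secreted protease Htra1 had 2.12, 2.25 and 2.46 FPKM in control and 1.496, 1.53 and 1.65 FPKM in lipophagy livers (-0.36, adjusted p = 0.134), with no overlap. Igfbp7 and Igf2r, named after their values were seen, had all lipophagy livers below all controls too (-0.30 and -0.20, adjusted p = 0.172 and 0.251). With Htra1 these made 3 of the 5 tested, where 10.8% of all tested genes had this pattern. Igfbp7 and Htra1 are also made by stellate cells, whose 14 tested markers, led by Dcn and Ecm1, summed to 229 to 267 FPKM in control and 186 to 253 FPKM in lipophagy livers (11 of 14 lower, median -0.28), and whose part in these values was not tested.

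**Figure D3:**
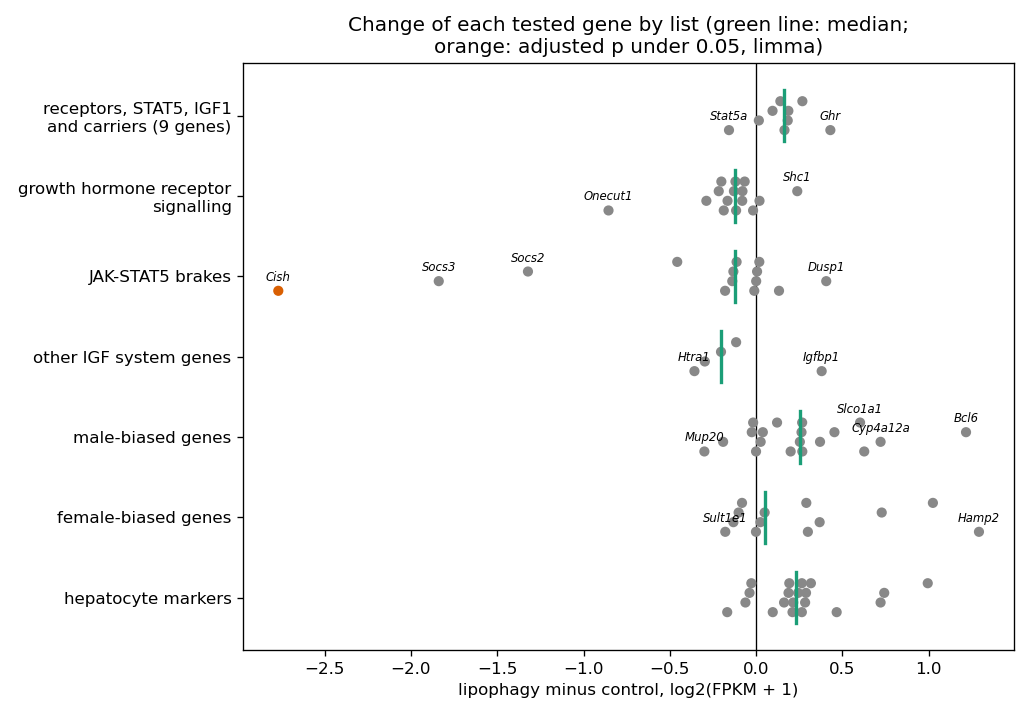
Difference between lipophagy and control livers on the log2(FPKM + 1) scale (horizontal axis) for every tested gene of 7 lists (rows); green lines are medians and orange marks an adjusted p below 0.05. Cish alone is past the threshold, and the medians are 0.16 for the 9 genes, -0.12 for receptor signalling and for the brakes, and 0.25 for male-biased genes.

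Liver genes whose sex bias depends on growth hormone were counted next. Of 19 male-biased genes tested, 14 were higher and 5 lower in lipophagy livers, with a median of 0.25, close to the 0.23 of hepatocyte markers. That split depended on scale: 11 were higher and 8 lower after quantile normalization (median 0.05) and at the same sum of FPKM (median 0.07), and 6 were higher and 13 lower at the same hepatocyte marker mean (median -0.01), where the medians of all genes were 0.007, -0.12 and -0.25. The median also depended on single livers, from -0.06 to 0.37 with a liver left out. None of the 19 passed the threshold, and 6 were higher and 0 lower at unadjusted p below 0.05 (11.5% and 7.97% of all tested genes). All lipophagy livers lay above all controls for 6 of 19 (15.4% of all tested genes), Slco1a1, Cyp4a12a, Hsd3b5, Nudt7, Mup3 and Cyp2d9, which were named after their values were seen. Of 20 hepatocyte markers, 7 had no overlap in this direction and 7 were higher at unadjusted p below 0.05. Slco1a1, an organic anion transporter, was at 55.1, 58.7 and 52.8 FPKM in control and 82.3, 84.7 and 87.5 FPKM in lipophagy livers (0.60, SE 0.0771, adjusted p = 0.0710, limma), and its difference was 0.33 at the same hepatocyte marker mean (adjusted p = 0.0276). Bcl6, a repressor that STAT5 is known to lower in liver, had the largest difference of the list (1.22, SE 0.407, adjusted p = 0.192), at 2.05, 7.13 and 5.24 FPKM in control and 6.42, 16.6 and 13.9 FPKM in lipophagy livers. Its groups overlapped through control 2 and lipophagy 1, and the difference was 0.81 without control 1 and 1.59 without lipophagy 1. The major urinary protein Mup20 was lowest (-0.30, adjusted p = 0.573), at -0.05 without lipophagy 1, -0.11 without control 3, -0.54 without control 1 and -0.52 without lipophagy 2, and reads of this gene family are hard to assign to single members. Of 13 female-biased genes, 8 were higher and 5 lower, with a median of 0.05 and none past the threshold. At the same hepatocyte marker mean or sum of FPKM, 6 were higher and 7 lower. At unadjusted p below 0.05, 2 of 13 were higher and 0 lower (11.5% and 7.97% of all tested genes). All lipophagy livers lay above all controls for 2 of 13 (15.4% of all tested genes). These were Hamp2 and Cyp4a14, the latter named after its values were seen. Hamp2, a hepcidin gene, was highest (1.29, adjusted p = 0.153) and Sult1e1, the oestrogen sulfotransferase, lowest (-0.18, adjusted p = 0.760). The difference of Sult1e1 turned to 0.08 without control 3 and to 0.11 without lipophagy 1.

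Matches to the same palindrome are shown for Socs3 and Bcl6, picked from these lists after their values were seen. Windows were not found for every gene, with 9 of 14 brakes, 14 of 21 male-biased and 17 of 23 female-biased genes having one. Of these, 1 of 9 brakes, 2 of 14 male-biased and 3 of 17 female-biased genes held a match, against 8.13% of all genes, and the other matches are not shown. Socs2 had no window and was not searched. Cish had a window with no match before its start, but 2 matches begin in the 50 bases after it, where 1.15% of all 32851 windows and 0 of the 17 windows of the 9 axis genes hold one. In the same bases, 1 of 18 windows of receptor signalling genes and 1 of 22 of female-biased genes also hold one. The Cish stretch is shown because Cish was the gene past the threshold, and was looked for after its values were seen. Capitals mark the palindrome.

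Cish, chr9:107296654-107296683, plus strand, from just before the start: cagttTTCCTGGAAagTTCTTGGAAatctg

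Socs3, chr11:117969502-117969530, minus strand, 154 bases before a start: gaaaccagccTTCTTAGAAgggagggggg

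Bcl6, chr16:23988952-23988980, minus strand, 118 bases before a start: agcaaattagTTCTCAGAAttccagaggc

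Bcl6, chr16:23981433-23981461, minus strand, 168 bases before another start: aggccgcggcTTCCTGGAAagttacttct

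Bcl6, chr16:23981387-23981415, minus strand, 122 bases before the same start: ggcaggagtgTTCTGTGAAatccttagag

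Bcl6, chr16:23981353-23981381, minus strand, 88 bases before the same start: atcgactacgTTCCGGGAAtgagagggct

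The livers with high Prlr also stood apart in the sex-biased genes. In control 1 and lipophagy 1, Mup7 was at 274 and 347 FPKM, against 828 to 3421 FPKM in the other livers. Cyp2b9, a female-biased cytochrome, was at 4.01 and 11.0 FPKM in those livers, against 0.188 to 1.48 FPKM in the others. Both genes were named after their values were seen. Control 1 was the lowest control liver and lipophagy 1 the lowest lipophagy liver for 11 of 19 male-biased genes, where 12.2% of all tested genes had this pattern. Among them were Bcl6, Cyp7b1, Ugt2b38 and the major urinary protein genes Mup1, Mup7, Mup20 and Mup21. Reads of that family are hard to assign to single members, so the 11 are not all separate genes in this count. The reverse, control 1 and lipophagy 1 highest, held for 0 of 19 male-biased and 6 of 13 female-biased genes and for Prlr, against 13.9% of all tested genes. In the other direction, 3 of 13 female-biased genes (Cyp17a1, Sult1e1 and Trim24) were lowest in both livers, against the same 12.2%. Of the 9 genes of the axis, Igfbp4 and Stat5a were lowest in both livers. Other lists moved with these livers too: both were highest for 4 of 15 receptor signalling genes and 5 of 20 hepatocyte markers. Summed sinusoidal endothelial markers were 63.3 and 83.2 FPKM in control 1 and lipophagy 1 and 51 to 57.2 FPKM in the others, and their part in the Prlr values was not tested. This description was made after the values were seen and compares livers within groups, not the groups. Without control 1 the median of male-biased genes was 0.0006, without lipophagy 2 it was -0.06, and without lipophagy 1 it was 0.37, whereas Ghr was 0.48 without control 1 and 0.45 without lipophagy 1.

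**Figure D4:**
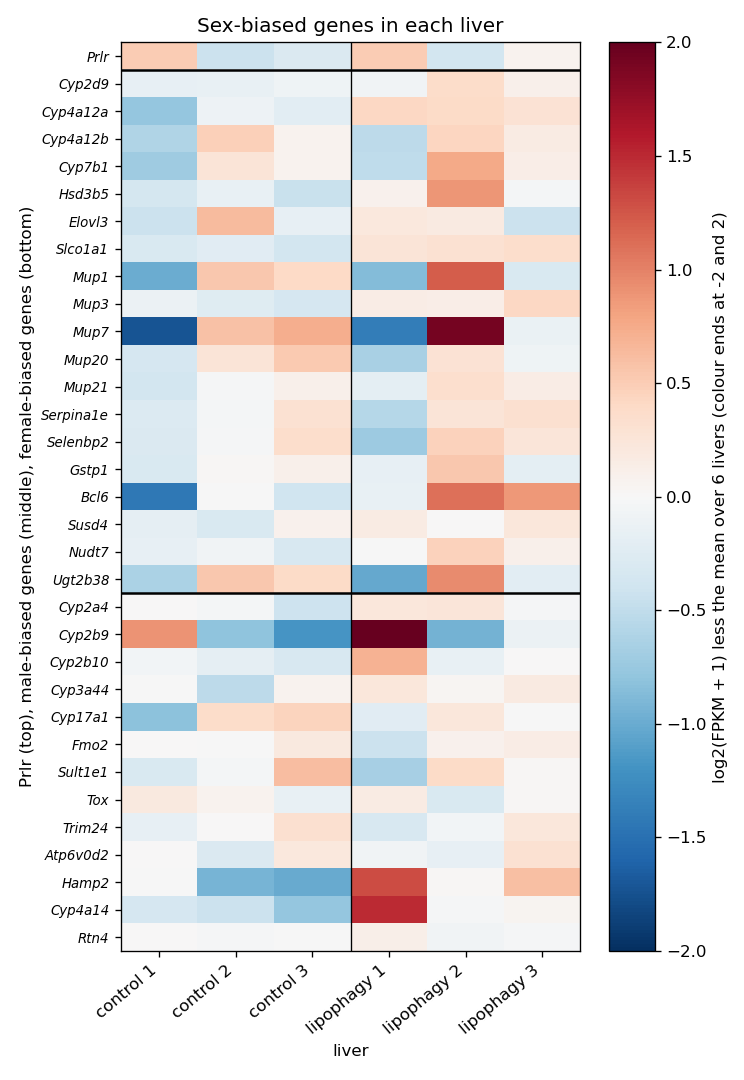
Level of Prlr, 19 male-biased and 13 female-biased genes (rows) in each of 6 livers (columns), as log2(FPKM + 1) less the mean over livers, with red higher and blue lower. Control 1 and lipophagy 1 are red for Prlr and Cyp2b9 and blue for Mup7, Mup1 and Ugt2b38, and lipophagy 2 shows the opposite colours for these genes.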

How the data were processed

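Liver RNA of 3 control and 3 lipophagy samples was analysed. The authors deposited FPKM values per gene symbol and liver, from a stranded poly(A) library read as 100-base pairs. The submitters' processing notes name TopHat2 2.0.13, Bowtie2 2.2.3, SAMtools 0.1.19, Cufflinks 2.2.1 and mm10, without their roles. The annotation is not given in the sources used here. Names of 27 rows had become dates and were left as they stood.

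Values were taken as log2(FPKM + 1), a scale that understates changes of low genes. Rows averaging 0.5 FPKM or more (11493 genes) entered a linear model in limma 3.58.1, run in R 4.3.3 (variance trend, no covariates, two-sided), adjusted by Benjamini-Hochberg over all of them. The Stat5b to Stat5a ratio was compared by a two-sided exact permutation test. Lists were described by counts and medians. The code was tested on simulated data.

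Members and lists were chosen with earlier results of these data known. Named were the 9 genes, list genes past the threshold, the largest rise and fall of each pathway list, and the 2 most abundant genes of the cell type lists used. Any other gene is marked in the text as picked with its values in view. Exceptions outside this rule are Jak2 and Igf1r, named for their roles, and the pituitary list genes named because they were undetected. Besides those in the report, bile duct (7 of 7 lower, median -0.46, led by Spp1), lymphocyte (3 of 5 lower, -0.12, Ptprc and Cd79b) and blood markers (4 of 7 higher, 0.26, Alas2 and Hba-a1) were summarised; another gene under this rule is not reported here.

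Fragments were estimated from steps of low FPKM values (200 bases taken off the length); 71.57% to 79.45% of such values lay within 0.1 of a whole number. Estimates use the longest coding transcript of each gene and cover counting error only. Gene positions are from GENCODE M21 on GRCm38. Python 3.11.15, Biopython 1.88 and matplotlib 3.10.9 were used. Alternatives were other pseudocounts (0.1, 0.5), no filter or a filter at 1 FPKM, no variance trend, 4 scalings, the replicate number as a block and each liver left out.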

Additional observations from a re-analysis of the deposited data

How the results depend on the processing

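Over 16 alternatives Ghr kept its direction (0.16 to 0.48, adjusted p 0.124 to 0.373, limma), as did Stat5a, and no adjusted p of the 9 genes was below 0.05. Igfbp2 kept its sign only in name, since it was 0.0001 at the same hepatocyte marker mean. The number of genes past the threshold was 3, and 1 without the filter, 3899 at the same hepatocyte marker mean, 104 at the same sum of FPKM (chosen after seeing the data) and 2 to 11 with a liver left out. Whether the replicate numbers pair the livers cannot be told from 3 livers per group. Deviations of same-numbered livers correlated at 0.25, 0.23 and -0.06. Lipophagy 2 correlated best with control 3 (0.25) and lipophagy 3 with control 1 (0.11). With the replicate number as a block, 43 genes passed; Bcl6, Hamp2 and Socs3 were among them, and none of the 9 genes was.

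Quantile normalization turned Igf1 to -0.0728, Igfbp4 to -0.0452, Stat5b to -0.0088 and Sstr2 to 0.0787. The same hepatocyte marker mean shifts all genes of a liver alike (median of all genes -0.25) and so changes no gene against the others; it turned Prlr to -0.13, Igf1 to -0.17, Igfals to -0.0810, Igfbp3 to -0.10, Igfbp4 to -0.0847, Stat5b to -0.25 and Shc1 to -0.0294. The same sum of FPKM (median -0.12) turned Prlr to -0.0309, Igf1 to -0.0864 and Stat5b to -0.14. List medians at the same hepatocyte marker mean were -0.39 (receptor signalling and brakes), -0.47 (other IGF genes), -0.27 (pituitary), -0.0144 (male-biased) and -0.22 (female-biased), and at the same sum -0.27, -0.26, -0.35 and, for female-biased genes, -0.11; without the filter that of other IGF genes was -0.0590. At the same sum, male-biased genes had a median of 0.07. With the hepatocyte setting, adjusted p (limma) fell below 0.05 for Jak2 (0.0273), Socs2 (0.0153), Socs3 (0.0137), Htra1 (0.0137), Igfbp7 (0.0136), Igf2r (0.0205), Onecut1 (0.0334), Hamp2 (0.0375) and Slco1a1 (0.0276), and at the same sum for Socs3 (0.0436) and Igfbp7 (0.0330).

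With a liver left out, ranges were -0.0760 to 0.43 for Prlr, -0.0474 to 0.0856 for Stat5b, -0.28 to 0.80 for Dusp1, -0.0921 to 0.0377 for Sstr2, -0.41 to 0.11 for Sult1e1, and as medians -0.18 to -0.0543 (receptor signalling), -0.26 to -0.15 (other IGF genes), -0.0627 to 0.37 (male-biased) and 0.0399 to 0.17 (female-biased). The cause was not tested. The estimated depth limits Stat5a and Igfbp3 most, with counting errors up to 7.30% and 6.60%.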
